A study of Mus musculus with 10 samples.

Results

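The genes described here are 29 enzymes and regulators of cholesterol and fatty acid synthesis, taken by gene name from a table of 55952 genes measured by bulk RNA sequencing in mouse kidney. They form a sterol branch of 17 genes and a fatty acid branch of 12 genes. Both groups were C57BL/6 mice, an inbred laboratory strain, with no transgene or drug in the labels. The hypoxia group (5 libraries) was raised at 4200 m and the control group (5 libraries) at 400 m, and kidneys were taken after 30 days. The labels give no sex, age at the start, feeding state or time of day, and each group lived at its own site, so altitude and site cannot be told apart. The labels do not state that libraries came from different mice, and the p-values then cover only the spread among libraries, which may be technical.

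Cholesterol is built from acetyl-CoA. Hmgcs1 acts on the way to mevalonate, and the kinases and the decarboxylase Mvd turn mevalonate into isoprene units. Idi1 isomerises these units and Fdps joins them. Fdft1 and Sqle make and oxidise squalene, Lss closes the sterol rings, and Cyp51, Msmo1, Nsdhl, Sc5d and Dhcr7 trim lanosterol to cholesterol. Fatty acids start from the same acetyl-CoA, supplied by Acly and Acss2, activated by Acaca and Acacb, polymerised by Fasn, and then desaturated and elongated. Both branches are known targets of the SREBP transcription factors, SREBP2 (Srebf2) mainly for sterols and SREBP1 (Srebf1) mainly for fatty acids. SREBPs reach the nucleus when sterols are low, escorted by SCAP and held back by the INSIG proteins.

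The promoters of the 3 sterol genes that fell, Idi1, Cyp51 and Mvd, are shown because these genes moved together, with that of Hmgcs1, a gene of the same branch that did not pass the test. Each is the 250 bases before the start of the gene in RefSeq (build GRCm38.p6), 5′ to 3′ on the strand of the gene, and capitals mark the motifs found (ATTGG is CCAAT on the other strand).
Idi1, chr13:8885356-8885605, + strand: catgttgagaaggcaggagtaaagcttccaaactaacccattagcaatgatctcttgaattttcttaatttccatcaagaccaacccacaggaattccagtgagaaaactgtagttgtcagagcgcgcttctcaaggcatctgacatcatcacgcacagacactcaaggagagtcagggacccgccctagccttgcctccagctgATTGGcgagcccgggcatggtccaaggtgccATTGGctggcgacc
Cyp51, chr5:4104698-4104947, - strand: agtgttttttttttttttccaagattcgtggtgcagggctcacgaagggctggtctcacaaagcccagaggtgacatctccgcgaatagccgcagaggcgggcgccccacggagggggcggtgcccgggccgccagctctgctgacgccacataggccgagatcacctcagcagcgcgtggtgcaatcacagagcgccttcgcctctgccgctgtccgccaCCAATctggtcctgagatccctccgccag
Mvd, chr8:122443423-122443672, - strand: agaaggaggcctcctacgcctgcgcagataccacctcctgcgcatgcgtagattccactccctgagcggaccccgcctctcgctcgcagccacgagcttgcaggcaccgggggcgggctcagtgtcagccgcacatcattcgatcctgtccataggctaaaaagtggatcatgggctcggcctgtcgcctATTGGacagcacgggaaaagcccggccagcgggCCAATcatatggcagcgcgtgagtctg
Hmgcs1, chr13:119690101-119690350, + strand: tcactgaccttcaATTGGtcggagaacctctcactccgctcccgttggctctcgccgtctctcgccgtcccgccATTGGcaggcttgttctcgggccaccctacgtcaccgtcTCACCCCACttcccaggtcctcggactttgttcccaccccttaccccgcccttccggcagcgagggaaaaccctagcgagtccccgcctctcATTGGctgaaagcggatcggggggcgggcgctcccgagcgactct

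Motifs were searched as exact letters on both strands. They were the sterol regulatory element bound by SREBPs (TCACNCCAC), the CCAAT box bound by NF-Y (CCAAT), a known partner of SREBPs, and the E-box (CACGTG), and no match of one overlapped a match of another in the 4 windows shown. RefSeq windows were found for 22 of the 29 genes, and Fdps, Fdft1, Sqle, Stard4, Scd1, Scd2 and Dgat2 had none in the table. The sterol element was found in 1 of the 22, Hmgcs1, starting 137 bases before the start of the gene, against 1.35% of the 10477 genes that were tested for expression and had a window. A CCAAT box lay in all 13 sterol genes with a window and in 6 of 9 fatty acid genes, against 39.6% of those 10477 genes. In Idi1 the boxes began 45 and 14 bases before the start, in Mvd 60 and 27 bases and in Cyp51 29 bases before it. The RefSeq starts of Idi1 and Cyp51 lie inside the gene spans of the deposited table, and so do both Idi1 boxes and the Cyp51 box. The E-box was found in 4 of the 22, Dhcr7, Insig1, Sc5d and Elovl5, against 9.88% of the tested genes. These are letter matches in a short window and say nothing of binding.

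Expression was deposited as FPKM, fragments scaled to gene length and to a factor for each library. By the median ratio, the deposited values were already even between libraries, so this factor was not the read total alone. The libraries held 16561672 to 17845464 reads assigned to genes. Some libraries carried RNA of other tissues. Summed markers of the adrenal cortex (9 genes) reached 1137 FPKM in hypoxia replicate 4, led by Hsd3b1 at 371.8 FPKM, against 2.44 to 16.3 FPKM in the other hypoxia libraries and 1.72 to 2.52 FPKM in controls. White fat markers (7 genes) summed to 676.3 FPKM in the same library, against 77.6 to 155.5 FPKM in the other hypoxia libraries and 65.6 to 182.8 FPKM in controls. Hypoxia replicate 5 held B cell markers (5 genes) at 344.1 FPKM, against at most 1.74 FPKM in any control, and its proximal tubule markers (6 genes) summed to 912.6 FPKM, against 1734 to 2314 FPKM in controls. Brown fat markers (4 genes) were above every hypoxia library in control replicates 1, 2, 4 and 5, but not in control replicate 3. They summed to 43.9, 16.9, 1.03, 48.4 and 41.8 FPKM in control replicates 1 to 5 and 0.291 to 6.06 FPKM in hypoxia. The brown fat gene Elovl3 was at 0 in every hypoxia library and in control replicates 1 to 3. Ucp1 was at 0 in hypoxia replicates 2 and 3 and control replicate 3, and Cox8b in hypoxia replicates 1 and 3. Hepatocyte markers (5 genes) were highest in hypoxia replicate 2, at 67.7 FPKM with Alb leading, against at most 15.3 FPKM in controls. Exocrine pancreas markers (7 genes) summed to 23.2 to 52.0 FPKM in hypoxia and 32.4 to 49.6 FPKM in controls. Outside hypoxia replicate 5 nearly all of this was Cela1. It was at 17.7 FPKM in that library, 23.2 to 29.8 FPKM in the other hypoxia libraries and 32.4 to 49.6 FPKM in controls. Hypoxia replicate 5 was the highest of the 10 libraries in the other 6 of the 7 genes. They were at 1.75 to 15.4 FPKM there and at most 0.176 FPKM in any other library. Podocyte markers (3 genes) summed to 99.8 to 132.1 FPKM in hypoxia replicates 1 to 4 and 61.3 FPKM in hypoxia replicate 5, against 67.7 to 86.5 FPKM in controls. Markers of the kidney were high in every library, with Umod of the thick ascending limb at 616.2 FPKM or more, and retina markers, checked because the protocol names that tissue, summed to at most 0.656 FPKM. In bulk RNA, fewer cells of a type and less RNA per cell cannot be told apart.

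Both branches moved only in part. Of the 28 genes that passed the filter on low values, 3 fell and 1 rose in hypoxia (limma, adjusted p under 0.05 over all 15264 tested genes), which is 14.3% of them against 11.5% of all tested genes, so the number of changes was close to that of the transcriptome as a whole. The 3 that fell were Idi1, Cyp51 and Mvd of the sterol branch, and the 1 that rose was Srebf1. Over all tested genes, 7.79% fell (1189) and 3.66% rose (559), a split that turned to 749 lower and 841 higher when libraries were rescaled without the 50 most abundant genes. By limma voom on recovered reads, scaled to the read total of each library, 927 were lower and 782 higher. The calls of the 4 genes held in both of these fits. Without hypoxia replicates 4 and 5, 5 genes fell (Idi1, Cyp51, Mvd, Fasn and Acly) and 0 rose, that is 17.9% against 12.3% of 14724 tested genes, of which 7.75% fell and 4.53% rose. Fdps was listed at 0.0392 to 0.174 FPKM in hypoxia and 0.0424 to 0.172 FPKM in controls, on 3 to 13 reads, and was not tested. The gene model Gm43738 shares 7512 bases with Fdps on the same strand and was at 0 in every library. How reads that fall on both were counted is not given in the sources used here.

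**Figure D1:**
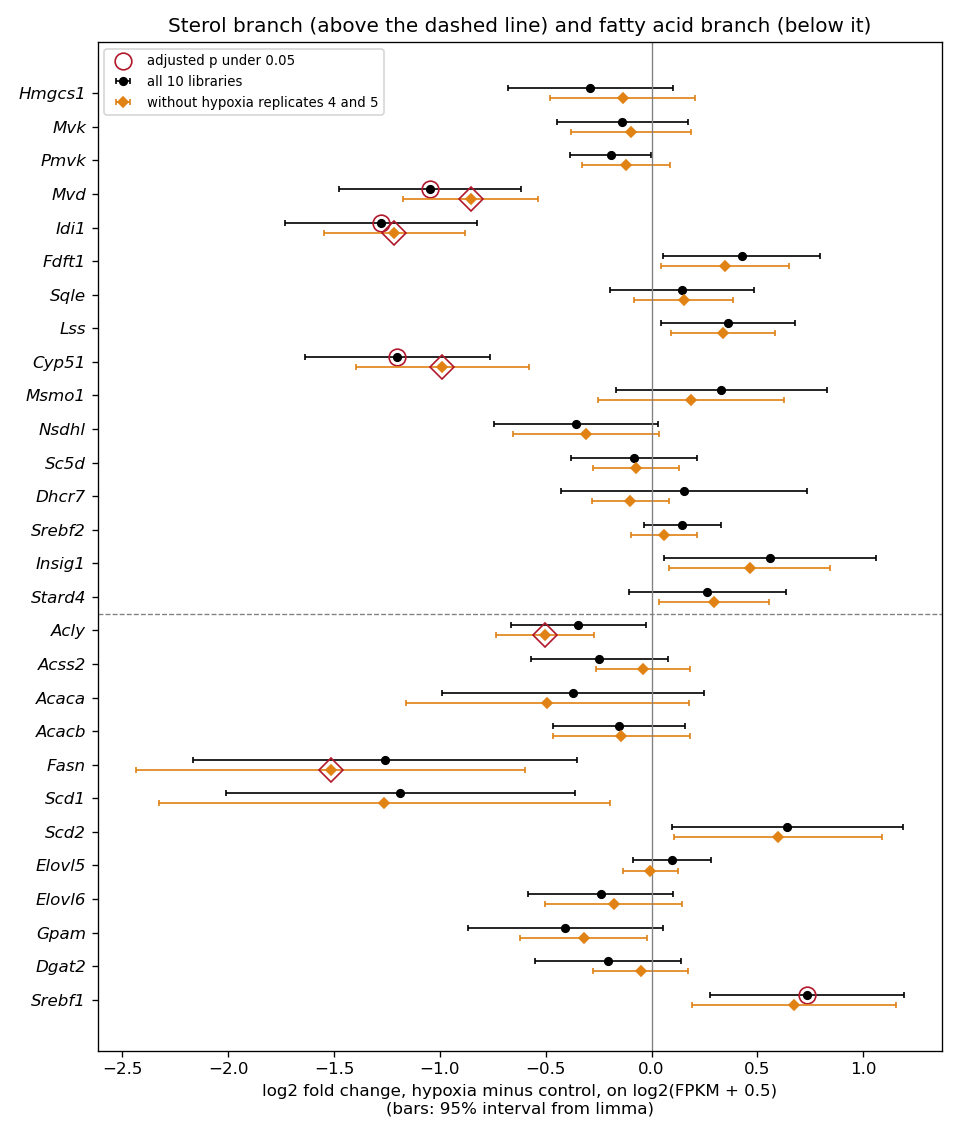
Log2 fold change (hypoxia minus control, on log2(FPKM + 0.5)) of the 28 tested genes with its 95% interval from limma, for all 10 libraries (black) and without hypoxia replicates 4 and 5 (orange), with red outlines on genes past an adjusted p of 0.05. Mvd, Idi1 and Cyp51 stand apart from the rest of the sterol branch at -1.05, -1.28 and -1.20, and Fasn and Scd1 have wide intervals.

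The sterol branch held 3 enzymes that fell clearly, from the middle and the late part of the pathway. Idi1, which isomerises isopentenyl diphosphate, was at 15.4, 11.6, 9.29, 16.2 and 6.84 FPKM in hypoxia replicates 1 to 5, against 24.6, 29.3, 31.2, 26.2 and 30.2 FPKM in control replicates 1 to 5. Mvd, the decarboxylase of the step before it, was at 20.04, 18.8, 12.8, 16.1 and 8.76 FPKM in hypoxia and 30.0, 34.9, 30.9, 27.1 and 32.3 FPKM in controls. Cyp51, which removes a methyl group from lanosterol, was at 53.7, 44.3, 30.0, 33.4 and 24.4 FPKM in hypoxia and 75.1, 82.5, 99.7, 89.0 and 70.6 FPKM in controls. In all 3 genes every hypoxia library lay below every control library, and hypoxia replicate 5 was the lowest. They were the only ones of the 28 whose groups did not overlap. Among all tested genes, 14.2% had groups that did not overlap, 8.54% with hypoxia below and 5.68% with hypoxia above.

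Mean levels were 11.9 ± 3.99 FPKM in hypoxia and 28.3 ± 2.79 FPKM in controls for Idi1 (SD, n = 5 each), and its log2 fold change was -1.28 (SE 0.206, limma adjusted p = 0.00526). For Cyp51 the means were 37.2 ± 11.8 FPKM in hypoxia and 83.4 ± 11.5 FPKM in controls, and the log2 fold change was -1.20 (SE 0.197, limma adjusted p = 0.00579). Mvd averaged 15.3 ± 4.597 FPKM in hypoxia and 31.0 ± 2.88 FPKM in controls, and the log2 fold change was -1.05 (SE 0.194, limma adjusted p = 0.00902). The hypoxia mean was 0.420 times the control mean for Idi1, 0.445 times for Cyp51 and 0.493 times for Mvd. The calls held in each of the 10 fits that left out 1 library, with adjusted p up to 0.0302. They also held without hypoxia replicates 4 and 5, at -1.22 for Idi1 (limma adjusted p = 0.00212), -0.99 for Cyp51 (0.0115) and -0.85 for Mvd (0.00759). Against control replicates 2 and 3 alone, the controls with least brown fat RNA, the log2 fold changes were larger, at -1.38, -1.33 and -1.13, but did not pass (limma adjusted p = 0.135, 0.131 and 0.163). In hypoxia replicate 4, the library with adrenal RNA, the levels of these 3 genes lay below every control.

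In the files' coordinates (GRCm38), Idi1 (ENSMUSG00000058258) spans chr13:8885501-8892451, Cyp51 (ENSMUSG00000001467) spans chr5:4081145-4104746 and Mvd (ENSMUSG00000006517) spans chr8:122433601-122443422. The whole of Mvd is overlapped on the other strand by the annotated gene Gm20388. Also on the other strand, Cyp51 shares 166 bases with Akap9 and Idi1 shares 323 bases with Gm48574. Other genes described here have such overlaps too, among them Acss2 with Gss (22544 bases) and Acaca with Gm11437 (19126 bases). Gpam shares 18314 bases with AC110206.1, Lss 11268 bases with 4930483K19Rik and Hmgcs1 6190 bases with Gm48342. Because strand use in the counting is not given in the sources used here, reads of such pairs cannot be told apart.

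**Figure D2:**
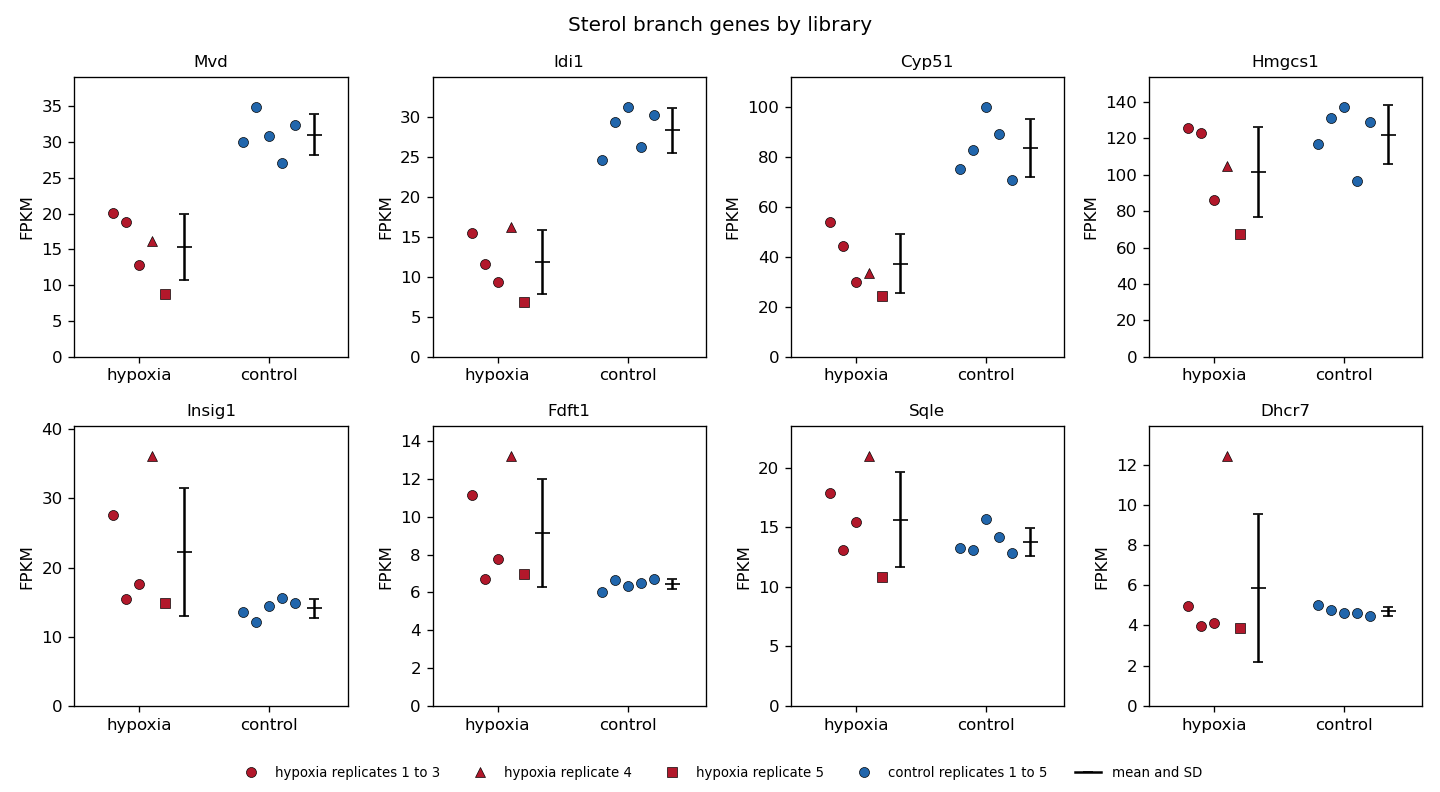
FPKM of 8 sterol branch genes in each hypoxia (left) and control (right) library, with the group mean and SD as bars. Mvd, Idi1 and Cyp51 do not overlap between groups, whereas Insig1, Fdft1 and Dhcr7 are spread within hypoxia, from 14.8 to 36.1 FPKM for Insig1, and close together in controls.

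The 3 steps listed before Mvd did not pass the test. Hmgcs1, which makes HMG-CoA and had the highest FPKM of the branch, was at 125.9, 123.2, 86.3, 105.0 and 67.6 FPKM in hypoxia and 116.8, 130.9, 137.1, 96.6 and 128.8 FPKM in controls, with a log2 fold change of -0.29 (95% interval -0.68 to 0.10, limma adjusted p = 0.293). Mevalonate kinase Mvk averaged 4.84 ± 1.13 FPKM in hypoxia and 5.28 ± 0.407 FPKM in controls (SD, n = 5 each), and phosphomevalonate kinase Pmvk averaged 5.66 ± 0.553 FPKM in hypoxia and 6.54 ± 0.698 FPKM in controls. The groups overlapped in all 3 of these genes. Their 95% intervals reach down to -0.45 for Mvk and -0.39 for Pmvk on the log2 scale, so decreases of that size lie within the intervals.

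Genes of the squalene and ring-closing steps and the sterol sensor had higher means in hypoxia, none past the threshold. Insig1, which retains the SREBP complex in the endoplasmic reticulum and is itself an SREBP target, was at 27.6, 15.4, 17.6, 36.1 and 14.8 FPKM in hypoxia and 13.6, 12.1, 14.4, 15.6 and 14.8 FPKM in controls (log2 fold change 0.56, limma adjusted p = 0.131). Fdft1, squalene synthase, was at 11.1, 6.69, 7.77, 13.2 and 6.98 FPKM in hypoxia and 6.05, 6.64, 6.35, 6.52 and 6.70 FPKM in controls (0.43, limma adjusted p = 0.124). Lss, lanosterol synthase, was at 3.43, 2.35, 2.93, 4.12 and 2.16 FPKM in hypoxia and 2.19, 2.09, 2.10, 2.14 and 2.33 FPKM in controls (0.36, limma adjusted p = 0.126). Lss passed without hypoxia replicate 5 (0.45, limma adjusted p = 0.0336). In these 3 genes hypoxia replicates 1 and 4 stood above every control by the widest margins, while hypoxia replicate 5 lay among the controls for Insig1 and Lss. Stard4, a cytosolic cholesterol carrier, had the same 2 libraries on top, at 28.98 and 31.2 FPKM, against 17.9 to 20.5 FPKM in controls (0.26, limma adjusted p = 0.315). Msmo1, a methylsterol oxidase, reached 9.40 and 11.9 FPKM in them, against 4.64 to 6.67 FPKM in controls (0.33, limma adjusted p = 0.348). Hypoxia replicate 1 had adrenal cortex markers at 2.78 FPKM and white fat markers at 155.5 FPKM, against 1.72 to 2.52 FPKM and 65.6 to 182.8 FPKM in controls. Its white fat sum was the highest of the hypoxia libraries other than replicate 4, where adrenal and white fat markers were at 1137 and 676.3 FPKM. The part of adrenal and fat RNA in the values of either library was not tested.

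For the squalene epoxidase Sqle, which is often rate-limiting after mevalonate, hypoxia libraries ranged from 10.8 to 20.9 FPKM and controls from 12.8 to 15.7 FPKM (log2 fold change 0.14, limma adjusted p = 0.553). Nsdhl, a sterol dehydrogenase, ranged from 11.6 to 21.7 FPKM in hypoxia and from 17.4 to 29.3 FPKM in controls (-0.36, limma adjusted p = 0.204), and the desaturase Sc5d from 7.71 to 13.9 FPKM in hypoxia and from 10.8 to 11.4 FPKM in controls. Dhcr7, which makes cholesterol in the last step, was at 12.4 FPKM in hypoxia replicate 4 and 3.86 to 4.95 FPKM in the other hypoxia libraries, against 4.46 to 5.01 FPKM in controls. The sign of its log2 fold change was set by that library, at 0.15 with it and -0.14 without it, neither past the threshold. Srebf2, the regulator of the branch, averaged 19.5 ± 2.21 FPKM in hypoxia and 17.5 ± 1.04 FPKM in controls (0.15, limma adjusted p = 0.263).

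Of the 16 tested sterol genes, 3 fell and 0 rose by limma, that is 18.8% against 11.5% of all tested genes. At an unadjusted limma p under 0.05, 4 were lower and 3 higher. Over all tested genes, 29.2% had an unadjusted p under 0.05, 16.8% lower and 12.3% higher. limma voom on the recovered reads gave the same counts of 3 and 0. The median log2 fold change of the 16 was 0.03, against 0.01 for all tested genes, and it was -0.09 without hypoxia replicates 4 and 5. Summed over its 17 genes, the branch was at 381.2, 318.4, 268.0, 370.6 and 214.9 FPKM in hypoxia and 374.1, 399.6, 425.3, 363.2 and 401.8 FPKM in controls. The hypoxia libraries with the lowest sums were replicates 3 and 5, and replicates 1 and 4 overlapped the controls.

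Opposite means within the branch showed in ratios inside each library, which do not depend on how libraries were scaled. The ratio of Idi1 to Insig1 was 0.560, 0.749, 0.528, 0.449 and 0.461 in hypoxia, against 1.81, 2.43, 2.16, 1.68 and 2.04 in controls. The ratio of Cyp51 to Insig1 was 0.926 to 2.87 in hypoxia, against 4.76 to 6.92 in controls. Neither ratio overlapped between the groups. Idi1 and Cyp51 did not overlap by themselves either, whereas Insig1 did, so these ratios do not show a change of Insig1. These pairs were chosen after their values were seen, so the ratios describe the samples and carry no test.

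**Figure D3:**
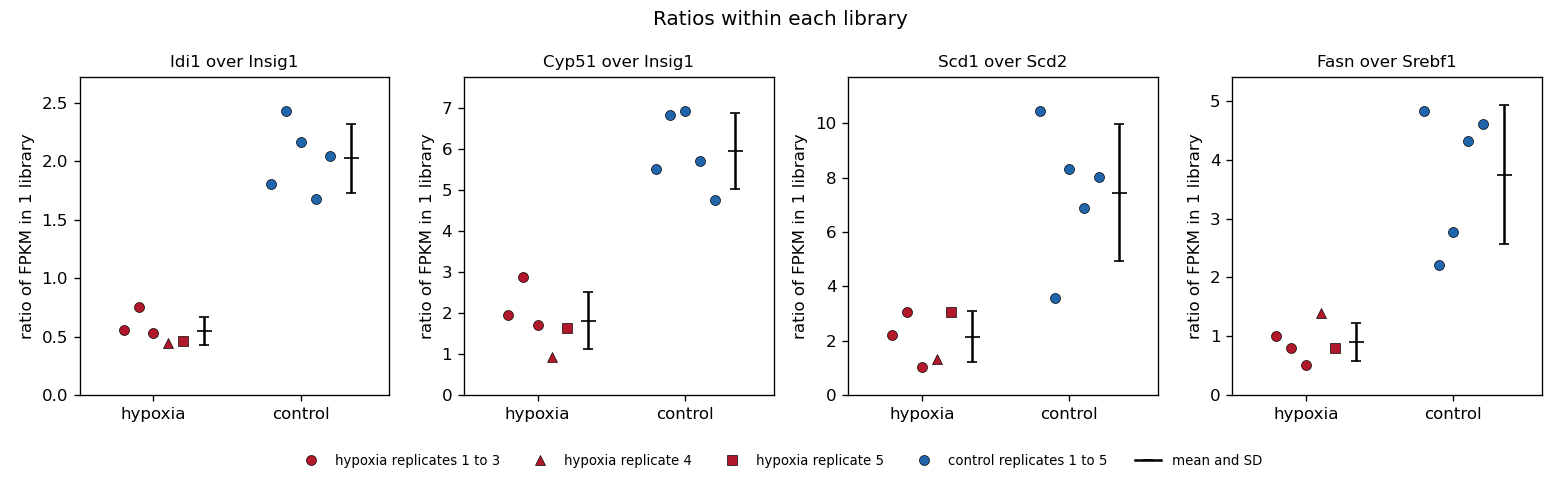
Ratio of the FPKM of 2 genes within each library, hypoxia left and control right, with the group mean and SD as bars. All 5 hypoxia libraries lie below all 5 controls in each panel, for example at 1.04 to 3.06 against 3.56 to 10.4 for Scd1 over Scd2.

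The fatty acid branch had lower means for its central enzymes, wide spread within both groups, and 1 gene past the threshold. Srebf1, which encodes SREBP1, rose to 18.0, 10.7, 19.3, 23.1 and 12.8 FPKM in hypoxia, against 9.12, 7.44, 9.10, 13.01 and 9.68 FPKM in controls. Its means were 16.8 ± 5.01 FPKM in hypoxia and 9.67 ± 2.05 FPKM in controls (SD, n = 5 each), and its log2 fold change was 0.73 (SE 0.207, limma adjusted p = 0.0455). Hypoxia replicate 3, with adrenal markers at 3.32 FPKM, was the second highest, and hypoxia replicates 2 and 5 overlapped control replicate 4. The call was close to the threshold. It was lost in 7 of the 10 fits that left out 1 library, those without control replicates 1, 2, 3 and 5 (limma adjusted p = 0.102, 0.110, 0.0952 and 0.0854 in turn) and those without hypoxia replicates 1, 3 and 4 (0.0881, 0.0939 and 0.0918). It was also lost without hypoxia replicates 4 and 5 together, at 0.67 (limma adjusted p = 0.0730). RefSeq lists several starts for Srebf1, and the deposited gene value does not separate its isoforms.

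Fasn, fatty acid synthase, was at 18.1, 8.61, 9.94, 32.2 and 10.4 FPKM in hypoxia and 44.0, 16.4, 25.3, 56.2 and 44.6 FPKM in controls. Scd1, the main stearoyl-CoA desaturase, was at 108.4, 92.6, 44.0, 89.8 and 84.2 FPKM in hypoxia and 300.6, 72.1, 182.7, 262.0 and 199.9 FPKM in controls. Both groups overlapped, through hypoxia replicates 1 and 4 for Fasn and through control replicate 2 for both genes. The log2 fold change was -1.26 for Fasn (SE 0.410, limma adjusted p = 0.0726) and -1.19 for Scd1 (SE 0.373, limma adjusted p = 0.0655), close to those of the 3 sterol enzymes but with standard errors about 2 times as large. Without hypoxia replicates 4 and 5 Fasn passed, at -1.52 (limma adjusted p = 0.0437), and Scd1 did not, at -1.26 (limma adjusted p = 0.117). Leaving out 1 library, Fasn passed without hypoxia replicate 4 (-1.56, limma adjusted p = 0.0338) and Scd1 passed without control replicate 2 (-1.52, limma adjusted p = 0.0156).

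Brown fat and white fat markers followed these 2 genes among the controls only in part. Control replicates 1, 4 and 5, with brown fat markers at 41.8 to 48.4 FPKM, had Fasn at 44.0 to 56.2 FPKM and Scd1 at 199.9 to 300.6 FPKM. Control replicate 3, with these markers at 1.03 FPKM, had Scd1 at 182.7 FPKM, above all 5 hypoxia libraries, and Fasn at 25.3 FPKM, above 4 of them. Control replicate 2, with markers at 16.9 FPKM, had the lowest control values of both genes. White fat markers were at 182.8, 65.6, 110.2, 112.6 and 139.2 FPKM in control replicates 1 to 5, lowest in replicate 2 and next lowest in replicate 3, as Fasn and Scd1 were. Hypoxia replicate 4, with white fat markers at 676.3 FPKM, had Fasn at 32.2 FPKM, the highest of the hypoxia libraries. Its Scd1, at 89.8 FPKM, lay within the range of the other hypoxia libraries. With control replicates 2 and 3 alone, the log2 fold change was -0.53 for Fasn and -0.51 for Scd1 (limma adjusted p = 0.619 and 0.590), less than 0.5 times the values with all controls. The part of brown and white fat RNA in the difference was not tested.

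**Figure D4:**
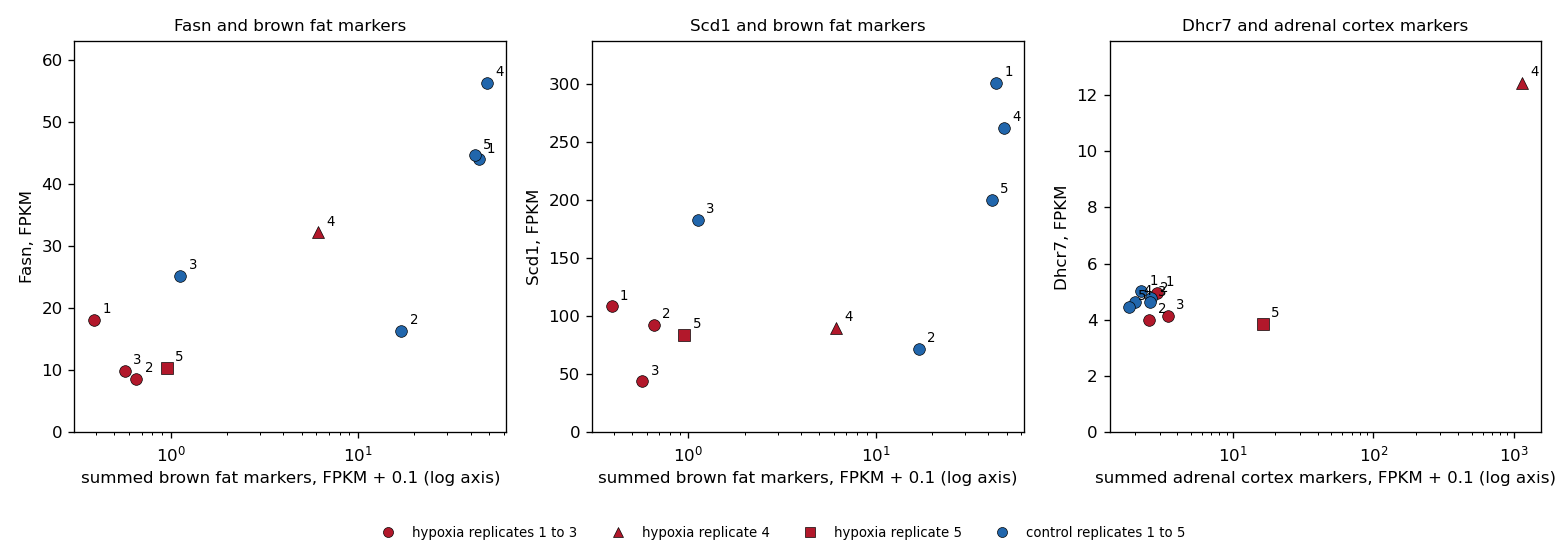
Fasn and Scd1 (FPKM) against summed brown fat markers, and Dhcr7 (FPKM) against summed adrenal cortex markers, both marker sums plus 0.1 FPKM on a log axis, 1 point per library with its replicate number. Control replicates 1, 4 and 5 sit at the upper right for Fasn and Scd1, and hypoxia replicate 4 stands alone for Dhcr7 at 12.4 FPKM.

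Scd2, a desaturase paralog of Scd1, had the opposite sign, at 48.7, 30.3, 42.5, 66.7 and 27.6 FPKM in hypoxia and 28.8, 20.2, 22.0, 38.1 and 24.9 FPKM in controls (log2 fold change 0.64, SE 0.247, limma adjusted p = 0.116). The groups overlapped through control replicate 4 and control replicate 1, and Scd2 passed only without hypoxia replicate 5 (0.78, limma adjusted p = 0.0462) among the fits that left out 1 library. The ratio of Scd1 to Scd2 was 2.23, 3.06, 1.04, 1.35 and 3.05 in hypoxia, against 10.4, 3.56, 8.31, 6.88 and 8.04 in controls, with no overlap. In the same way Fasn over Srebf1 was 0.516 to 1.40 in hypoxia, against 2.21 to 4.82 in controls. Both pairs were chosen after their values were seen. Scd1 and Scd2 are related in sequence, and how reads with several matches were counted is not given in the sources used here.

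**Figure D5:**
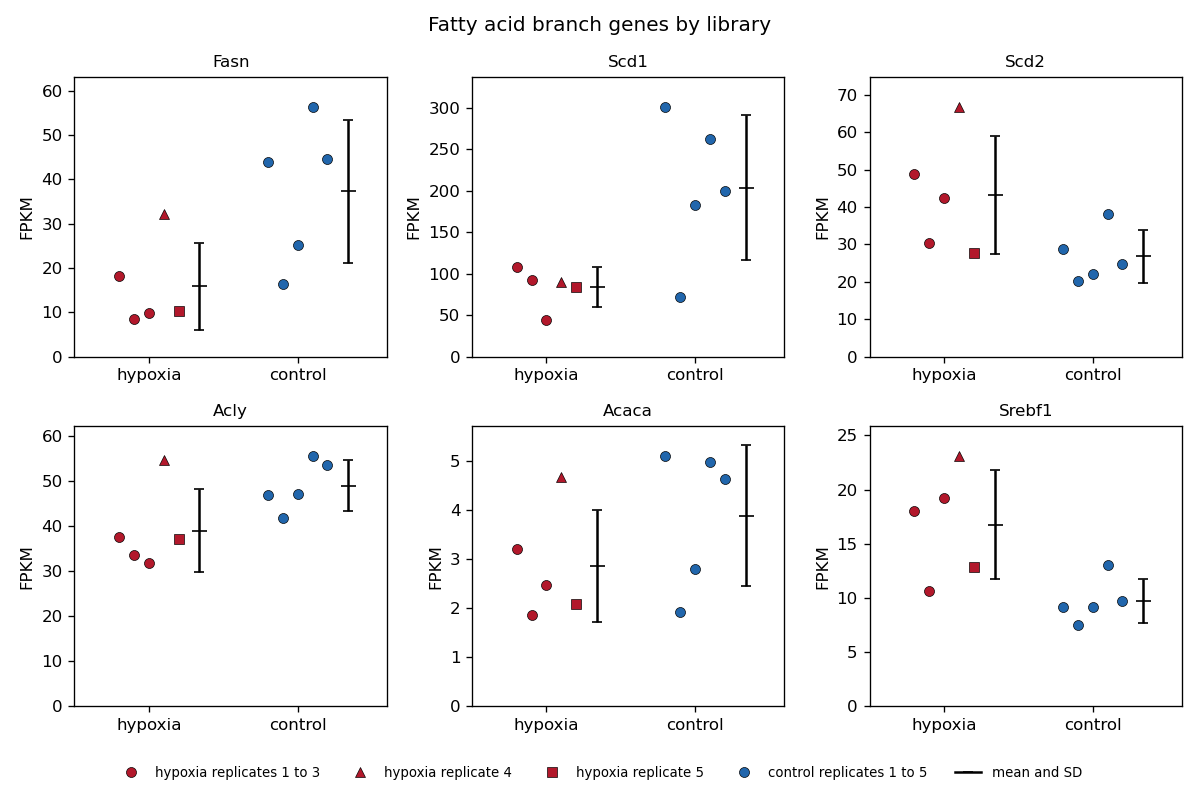
FPKM of 6 fatty acid branch genes in each hypoxia (left) and control (right) library, with the group mean and SD as bars. Controls spread widely for Fasn (16.4 to 56.2 FPKM) and Scd1 (72.1 to 300.6 FPKM), and hypoxia replicate 4 is the highest hypoxia library in 5 of the 6 panels.

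The enzymes that supply and carboxylate acetyl-CoA had lower means that did not pass with all libraries. Acly, ATP citrate lyase, was at 37.7, 33.6, 31.9, 54.9 and 37.1 FPKM in hypoxia and 46.9, 41.8, 47.3, 55.6 and 53.8 FPKM in controls (log2 fold change -0.35, limma adjusted p = 0.141). Only hypoxia replicate 4 reached the control range, and Acly passed without replicates 4 and 5 (-0.50, limma adjusted p = 0.0167) and without replicate 4 alone (-0.47, limma adjusted p = 0.0283). Acss2, the acetyl-CoA synthetase, ranged from 17.8 to 31.4 FPKM in hypoxia and from 26.5 to 34.8 FPKM in controls (-0.25, limma adjusted p = 0.284). The carboxylase Acaca was at 3.21, 1.86, 2.47, 4.67 and 2.08 FPKM in hypoxia and 5.10, 1.92, 2.79, 4.98 and 4.64 FPKM in controls, where the 3 high libraries were again control replicates 1, 4 and 5 (-0.37, limma adjusted p = 0.397). With control replicates 2 and 3 alone the sign of Acaca turned, to 0.19. Acacb, which makes malonyl-CoA at mitochondria, ranged from 4.19 to 6.44 FPKM in hypoxia and from 4.70 to 7.66 FPKM in controls.

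None of the elongation and glycerolipid genes passed the test. Elovl5, an elongase of polyunsaturated fatty acids, averaged 22.1 ± 2.91 FPKM in hypoxia and 20.5 ± 0.248 FPKM in controls (SD, n = 5 each), with a 95% interval of -0.09 to 0.28 for its log2 fold change. Elovl6, which elongates saturated fatty acids, averaged 5.82 ± 1.09 FPKM in hypoxia and 6.97 ± 1.34 FPKM in controls (-0.24, limma adjusted p = 0.319). Gpam, the first acyltransferase of glycerolipid synthesis, averaged 24.7 ± 7.83 FPKM in hypoxia and 31.7 ± 3.61 FPKM in controls (-0.41, limma adjusted p = 0.219). Dgat2, which completes triglycerides, averaged 58.9 ± 12.1 FPKM in hypoxia and 66.9 ± 6.997 FPKM in controls (-0.21, limma adjusted p = 0.399). In these 4 genes the groups overlapped.

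Of the 12 fatty acid genes, 1 rose and 0 fell by limma, that is 8.33% against 11.5% of all tested genes, and limma voom also gave 1 and 0. At an unadjusted p under 0.05, 2 were higher and 3 lower, where 29.2% of all tested genes passed in either direction. Their median log2 fold change was -0.24, against 0.01 for all tested genes, and -0.16 without hypoxia replicates 4 and 5. Summed over the 12 genes, the branch was at 386.9, 329.3, 297.8, 430.7 and 274.6 FPKM in hypoxia and 603.6, 324.9, 456.6, 573.9 and 502.0 FPKM in controls. Control replicate 2 lay within the hypoxia range and the other 4 controls above it.

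Hypoxia replicate 4 was the highest hypoxia library in 12 of 16 sterol genes and 9 of 12 fatty acid genes, against 14.8% of all tested genes. Hypoxia replicate 5 was the lowest in 13 of 16 sterol genes and in 6 of 12 fatty acid genes, where replicates 2 and 3 were the lowest in 3 each, against 36.9% of all tested genes for replicate 5. The coefficient of variation was larger in hypoxia than in controls in 24 of the 28 genes and in 73.4% of all tested genes. Proximal tubule markers were also lowest in replicate 5, and adrenal and white fat markers highest in replicate 4, and their part in this order was not tested.

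Other genes of sterol synthesis and of the SREBP machinery were 13, of which 2 fell and 0 rose by limma, with a median of -0.19. That is 15.4% called, against 11.5% of all tested genes. At an unadjusted limma p under 0.05, 4 were lower and 3 higher, where 29.2% of all tested genes passed. Without hypoxia replicates 4 and 5, 1 fell and 1 rose, where 12.3% of all tested genes were called. Scap, the escort of SREBPs, was at 9.64, 10.3, 9.24, 8.97 and 8.13 FPKM in hypoxia and 11.8, 13.6, 13.3, 11.3 and 10.7 FPKM in controls (log2 fold change -0.37, limma adjusted p = 0.0222, and 0.0562 without hypoxia replicates 4 and 5). Scap lost its call without control replicate 1, 2 or 3 or hypoxia replicate 4, at an adjusted p of 0.0515 to 0.0598.

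Among 14 tested genes of sterol transport, storage and efflux, 2 rose and 1 fell by limma, with a median of 0.16. That is 21.4% called, against 11.5% of all tested genes, of which 3.66% rose and 7.79% fell. Without hypoxia replicates 4 and 5, 1 rose and 1 fell, that is 14.3% against 12.3% of all tested genes. Apoe, the main apolipoprotein made in many tissues, rose to 112.3, 172.5, 227.5, 231.0 and 231.8 FPKM in hypoxia, against 106.4, 88.1, 93.5, 104.3 and 87.0 FPKM in controls (log2 fold change 0.97, limma adjusted p = 0.0122). All 5 hypoxia values lay above the controls, as in 5.68% of all tested genes. Apoe held in each of the 10 fits without 1 library and without hypoxia replicates 4 and 5 (0.78, limma adjusted p = 0.0353). Macrophage markers, which belong to a cell type known to make Apoe, summed to 38.0 to 52.0 FPKM in hypoxia replicates 1 to 3 and 42.0 to 54.4 FPKM in controls, and to 68.5 and 244.1 FPKM in hypoxia replicates 4 and 5. Nr1h3, the oxysterol receptor LXRα, fell to 15.2, 15.8, 14.7, 11.7 and 18.5 FPKM in hypoxia, against 22.7, 24.3, 22.5, 20.02 and 19.8 FPKM in controls (-0.52, limma adjusted p = 0.0158), in every fit without 1 library as well. Abca1, the cholesterol exporter, rose to 4.69, 4.56, 10.998, 8.10 and 8.45 FPKM in hypoxia, against 3.65, 3.38, 3.77, 4.95 and 3.81 FPKM in controls (0.77, limma adjusted p = 0.0481), and kept its call in 2 of 10 fits without 1 library, those without hypoxia replicate 1 or 2 (adjusted p of the others 0.0539 to 0.111), and not without hypoxia replicates 4 and 5 (0.157).

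Of 18 other genes of fatty acid and glycerolipid synthesis, 3 fell and 0 rose by limma, with a median of -0.24. That is 16.7% called, against 11.5% of all tested genes. At an unadjusted limma p under 0.05, 10 were lower and 1 higher, against 16.8% lower and 12.3% higher of all tested genes. Without hypoxia replicates 4 and 5, 5 fell and 1 rose, that is 33.3% called against 12.3% of all tested genes. Me1, the malic enzyme that supplies NADPH, fell to 145.5, 127.5, 98.7, 127.9 and 65.7 FPKM in hypoxia, against 167.6, 203.2, 204.2, 161.8 and 186.9 FPKM in controls (log2 fold change -0.75, limma adjusted p = 0.0352). The acyltransferase Agpat2 averaged 12.4 ± 2.40 FPKM in hypoxia and 19.1 ± 2.33 FPKM in controls (-0.62, limma adjusted p = 0.0207). Its relative Agpat3 averaged 45.8 ± 9.72 FPKM in hypoxia and 66.0 ± 3.58 FPKM in controls (-0.55, limma adjusted p = 0.0309; SD, n = 5 each). None of the 3 overlapped between groups, where 14.2% of all tested genes did not overlap, 8.54% with hypoxia below. All 3 held without hypoxia replicates 4 and 5, with limma adjusted p of 0.0248, 0.0167 and 0.0308. Without 1 library, Me1 lost its call in 6 of 10 fits (adjusted p up to 0.0854, without control replicate 2), Agpat3 in 7 (up to 0.0771, without control replicate 2) and Agpat2 in 2 (0.0554 and 0.0522, without control replicates 1 and 5). Rescaled without the 50 most abundant genes, 0 of the 18 passed.

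Lipid droplet and lipolysis genes gave 0 of 10 past the threshold by limma and by limma voom, against 11.5% and 11.2% of all tested genes. Their median log2 fold change by limma was -0.31. At an unadjusted p under 0.05 there were 7 by limma and 5 by voom, where all tested genes gave 29.2% by limma and 29.3% by voom. Without hypoxia replicates 4 and 5, 2 of the 10 fell, where 7.75% of all tested genes fell. The most abundant were G0s2, an inhibitor of lipolysis, at 23.6 to 44.8 FPKM in hypoxia and 36.7 to 66.5 FPKM in controls (log2 fold change -0.47, limma adjusted p = 0.164), and Pnpla2, the lipase it inhibits, at 36.2 to 75.8 FPKM in hypoxia and 38.3 to 46.9 FPKM in controls (0.11, limma adjusted p = 0.712). Pnpla2 had its highest value in hypoxia replicate 4, the library with the highest white fat markers, and a log2 fold change of -0.02 without replicates 4 and 5.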

How the data were processed

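Kidney RNA of 5 hypoxia and 5 control samples was sequenced, and the authors deposited 1 table of FPKM values, with gene names, coordinates and, as an other unit, gene length in bases. The submitters' processing notes name HISAT2 2.0.5 and the human build hg38. Of the deposited identifiers, 55141 were found in the GENCODE M21 annotation of GRCm38 and 99.4% had the same coordinates, including all 29 genes described, so coordinates are GRCm38. For counting, neither tool, strand setting nor treatment of multiple matches is given in the sources used here. Multiplied by gene length, at least 99.97% of the values above 0 in each library were whole multiples of that library's smallest step (tolerance 0.05), which gave whole reads. The median ratio between libraries was already 1 in the deposited values, so rescaling by it changed nothing.

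Groups follow the treatment labels, and replicate numbers the titles. Genes whose mean over the libraries reached 0.5 FPKM were tested on log2(FPKM + 0.5), a scale that understates changes of low genes, with limma 3.58.1 in R 4.3.3 (two-sided, trended and robust, no covariate, Benjamini-Hochberg adjustment over all tested genes, threshold 0.05). Log2 fold changes are hypoxia minus control. The fit was tested on simulated libraries with the same setting of spread for all genes and no RNA of other tissues. That test does not cover libraries that hold such RNA. The members and gene lists were chosen with earlier results of these data known. Every member is named. From each pathway list up to 4 genes past the threshold with the smallest p are named, or the 2 most abundant where none passed, and for the markers that stand out the leading gene. A result that this rule would name is not reported here. Motif letters were fixed after the values were seen. Alternatives covered scaling, pseudocount, filter, error model, voom on the recovered reads, a replicate block and leaving out libraries. The fit without control replicates 1, 4 and 5 was added after seeing the data. Figures were drawn with matplotlib 3.10.9.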

Additional observations from a re-analysis of the deposited data

Results flagged for a closer look

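Of 76 groups of 5 values, 4 held a library far from the other 4, its gap to the nearest being over 0.71 of the range, and chance alone gives about 1 in 20. In hypoxia replicate 4, Dhcr7 was at 12.4 FPKM against 4.95 FPKM in the next library, Acly at 54.9 against 37.7 FPKM and Pnpla2 at 75.8 against 45.7 FPKM. The same library held adrenal cortex markers at 1137 FPKM and white fat markers at 676.3 FPKM, and their part in these values was not tested. In control replicate 4, Abca1 was at 4.95 FPKM against 3.81 FPKM in the next control.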

How the results depend on the processing

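The lower levels of Idi1, Cyp51 and Mvd kept their direction under every alternative and their call under all but the fit without control replicates 1, 4 and 5, which left 2 controls, called 0 of the 28 genes (5 at an unadjusted limma p under 0.05) and 7 higher and 14 lower of all genes. That fit gave 0 lower sterol genes, 0 higher fatty acid genes, and 1, 0 and 0 calls in the lists of other sterol genes, sterol transport and other fatty acid genes. With array weights, which gave hypoxia replicate 5 a weight of 0.104, 10 genes were called, with 4 sterol genes higher (Insig1, Fdft1, Lss and Stard4), 2 fatty acid genes higher and 1 lower, 6, 7 and 4 calls in other sterol, other fatty acid and lipid droplet genes, and 1309 higher and 1944 lower of all genes. Without hypoxia replicates 4 and 5, 0 fatty acid genes were higher and 2 lower, with 6 other fatty acid and 2 lipid droplet genes called.

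Deviations of same-numbered libraries from their group means correlated at only -0.08 to 0.09 over all tested genes. Hypoxia replicates 2 and 3 matched the control of their own number best, and the other hypoxia replicates a different one. These values give no support for pairing by number. They cannot exclude it, because an effect shared by few genes would not show in them. With a replicate block, 2 fatty acid genes were higher (Srebf1 and Scd2) and 1 lower (Fasn), and 265 and 734 of all genes were higher and lower. Without a filter, 0 fatty acid genes were higher (Srebf1 lost its call), 1 other sterol and 1 other fatty acid gene were called, and 263 and 703 of all genes were higher and lower. Without trend and robust fitting, likewise, 0 fatty acid genes were higher. With a mean of at least 1 FPKM, 5 other fatty acid genes and 1 lipid droplet gene were called. Scaling without the 50 most abundant genes gave 0 other fatty acid calls, and 841 higher against 749 lower of all genes, where the deposited scale gave 559 and 1189. voom gave 782 and 927.

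Leaving out 1 library gave 3 to 6 calls among the members, with 0 to 1 sterol genes higher and 3 lower in each fit, and 0 to 2 fatty acid genes higher and 0 to 2 lower. The lists gave 0 to 3 (other sterol), 2 to 3 (transport), 0 to 7 (other fatty acid) and 0 to 2 (lipid droplet) calls, and all genes 221 to 1094 higher and 603 to 1630 lower. Signs turned only among genes that were not called. Without 1 library the log2 fold changes ranged from -0.181 to 0.0205 for Sc5d, -0.139 to 0.253 for Dhcr7 and -0.0743 to 0.190 for Pnpla2. With array weights Sc5d was at 0.0020. Without hypoxia replicates 4 and 5 Dhcr7 was at -0.101, Elovl5 at -0.0052 and Pnpla2 at -0.0233, and without the 3 controls Acaca was at 0.192, Acacb at 0.0868 and Elovl6 at 0.0398. The causes were not tested. The members other than Fdps each had at least 158 reads in every library. Fdps had 3 to 13 reads, and the cause of its low count was not tested.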
